A study of Mus musculus with 24 samples.

Results

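The 9 genes described here are those by which the epithelial to mesenchymal transition (EMT) is usually followed. They are the cadherins Cdh1 (E-cadherin), Cdh2 (N-cadherin) and Cdh11 (OB-cadherin), the epithelial adhesion molecule Epcam, the intermediate filament vimentin (Vim), and the zinc finger repressors Snai1 (Snail), Snai2 (Slug), Zeb1 and Zeb2. They were taken by gene symbol from a table of 14737 gene records, in which each had 1 record. All 9 were among the 13373 genes tested, that is, genes reaching 1 FPKM in 3 or more of the 24 libraries. FPKM counts sequenced fragments relative to transcript length and to the mapped total of the library. Levels of different genes can be set side by side only with care. For Vim, Cdh2, Cdh11, Zeb1 and Zeb2 the gene value was a median 0.256 to 0.639 of the sum of listed transcripts.

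Polyadenylated RNA had been sequenced from mouse embryonic stem cells of strain 129/Sv in 8 groups of 3 libraries, Carma3xpA/+ cells and WT cells at each of d0, d3, d6 and d10. At d0 the cells were undifferentiated and had been kept on mouse embryonic fibroblasts (MEF) with serum and LIF. At d3, d6 and d10 the libraries came from embryoid bodies, which had been formed in hanging drops under a cardiac differentiation protocol with serum and ascorbic acid. Carma3xpA/+ cells carry 1 changed allele of Carma as the genotype is written, the labels do not spell out the change, and Carma itself was not analysed here. The design text calls the 3 libraries of a group biological replicates, but the labels do not say whether they were separate clones or aggregations, so a p-value reflects how far these particular libraries scatter. The libraries are bulk samples, in which fewer cells of a type and less RNA per cell cannot be told apart.

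In EMT, epithelial cells lose the junctions that Cdh1 builds and take on a migratory, mesenchymal form. Repressors of the Snail and Zeb families bind E-box sequences, among them in the Cdh1 promoter, and shut the gene down, while Cdh2 and Vim increase, an exchange known as the cadherin switch. Pluripotent stem cells express Cdh1 and Epcam. During gastrulation, cells that leave the epiblast through the primitive streak go through EMT under the control of Snai1, and embryoid bodies pass through a comparable stage.

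The promoters of Epcam, which fell after d3, and of Snai1 are shown because each holds the E-box that Snail and Zeb proteins recognise, CACCTG on one strand and CAGGTG on the other. RefSeq promoter windows of build GRCm38.p6 (mm10) were matched by symbol for Epcam, Snai1, Vim and Zeb2. They were not matched for Cdh1, Cdh2, Cdh11, Snai2 and Zeb1. The 250 bases before the start of Epcam (chr17:87635729-87635978, plus strand) and of Snai1 (chr2:167537945-167538194, plus strand) are given 5′ to 3′, with the E-boxes in capitals.
Epcam: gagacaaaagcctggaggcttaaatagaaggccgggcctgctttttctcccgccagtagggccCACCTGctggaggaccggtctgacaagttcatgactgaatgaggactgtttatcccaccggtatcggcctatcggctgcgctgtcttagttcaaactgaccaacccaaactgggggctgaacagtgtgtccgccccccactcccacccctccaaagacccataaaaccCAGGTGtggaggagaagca
Snai1: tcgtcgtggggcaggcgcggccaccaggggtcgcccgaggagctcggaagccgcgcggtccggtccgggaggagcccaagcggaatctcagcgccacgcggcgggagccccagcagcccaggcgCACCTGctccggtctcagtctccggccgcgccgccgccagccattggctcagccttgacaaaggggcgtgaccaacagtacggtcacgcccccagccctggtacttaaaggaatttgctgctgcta
The Epcam window held 2 such sites, with their leftmost bases at positions -187 and -19 relative to the start, and the Snai1 window held 1, at -126. Of all 32851 promoter windows of this length, 5657 (17.22%) held this E-box on either strand at least once. The window of Vim and the 4 windows of Zeb2 held none. A match describes the sequence and was not tested as a binding site.

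The FPKM of a library added up to 245274 to 306848, and 10667 to 11921 genes reached 1 FPKM. The number of reads behind a value is unknown, since the files hold no counts. In Carma3xpA/+ at d0, replicate 1 stood apart. It correlated with the other two libraries of its group at 0.9497 and 0.9549 across tested genes, whereas those correlated with each other at 0.9902. The summed level of 10 pluripotency markers, such as Pou5f1 and Nanog, was 4698 FPKM in that library, 1810 and 1956 FPKM in replicates 2 and 3 of Carma3xpA/+, and 2610 to 2899 FPKM in WT. The 10 fibroblast and feeder markers summed to 20.5, 38.5 and 29.0 FPKM in Carma3xpA/+ at d0 and to 23.4 to 27.5 FPKM in WT. Where leaving out replicate 1 ends a call of the 9 genes or moves it by over 1.5 times, the value without it is given.

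Across the course, both genotypes kept Cdh1 and Epcam high at d0 and d3, lowered both by d6, and raised Snai2, Zeb1, Zeb2 and Vim over the same step. By d10 Epcam and Vim were higher than at d6 in both genotypes, and Snai2 was lower. Between genotypes, Cdh1 was lower in Carma3xpA/+ at d0 and d10 and Epcam at d10, and no other member passed the test on any day. Pluripotency markers moved with the step from d3 to d6: 8 of 10 were lower in each genotype, and their sum was 112 to 131 FPKM at d6 against 1275 to 1362 FPKM at d3 in Carma3xpA/+, and 99.9 to 128 FPKM at d6 against 1483 to 1529 FPKM at d3 in WT. Cardiac markers, of a tissue that expresses Cdh2, summed to 595 to 708 FPKM at d6 against 16.9 to 18.3 FPKM at d3 in Carma3xpA/+, and to 677 to 867 FPKM at d6 against 10.2 to 21.1 FPKM at d3 in WT. Over all genes, 25.5% were lower at d6 than at d3 in Carma3xpA/+ and 24.7% in WT. The part of these cell types in the changes of the 9 genes was not tested.

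Cdh1 (ENSMUSG00000000303.12, chr8:106603351-106670246, plus strand, mm10) encodes the cadherin that joins epithelial cells through calcium dependent contacts. In Carma3xpA/+ libraries Cdh1 had 57.9, 92.1 and 76.0 FPKM at d0, 93.6, 99.97 and 99.7 FPKM at d3, 54.9, 52.7 and 51.7 FPKM at d6, and 59.2, 58.0 and 63.0 FPKM at d10. In WT libraries Cdh1 had 110.4, 106.6 and 115.6 FPKM at d0, 117.4, 103.9 and 99.2 FPKM at d3, 71.2, 56.5 and 50.1 FPKM at d6, and 84.4, 82.1 and 79.5 FPKM at d10. In each genotype the d6 libraries all lay below the d3 libraries, and Cdh1 was still above 50 FPKM in every library. Between d3 and d6, the log2(FPKM + 1) level of Cdh1 fell by 0.87 ± 0.13 in Carma3xpA/+ (SE, limma adjusted p = 5.24e-06) and by 0.85 ± 0.13 in WT (adjusted p = 7.70e-06). By d10 it had risen again in WT, by 0.48 ± 0.13 over d6 (adjusted p = 0.00418), and that call was lost after quantile normalization (0.22, adjusted p = 0.169). In Carma3xpA/+ the step from d6 to d10 did not pass the test (adjusted p = 0.253).

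Cdh2 (ENSMUSG00000024304.14, chr18:16588877-16809246, minus strand) encodes N-cadherin, the partner in the switch, which is also the main cadherin of heart muscle. In Carma3xpA/+ libraries Cdh2 had 1.55, 15.7 and 14.0 FPKM at d0, 6.43, 11.7 and 8.03 FPKM at d3, 22.3, 23.0 and 20.2 FPKM at d6, and 28.3, 13.9 and 20.0 FPKM at d10. In WT libraries Cdh2 had 14.95, 14.6 and 9.74 FPKM at d0, 9.81, 13.8 and 16.9 FPKM at d3, 21.3, 20.8 and 22.9 FPKM at d6, and 20.8, 21.7 and 20.8 FPKM at d10. Every d6 library lay above every d3 library in both genotypes. The change from d3 to d6 was 1.27 ± 0.45 on the log2 scale in Carma3xpA/+ (adjusted p = 0.0186), and the call was lost without d3 replicate 1 (1.09, adjusted p = 0.0727). In WT it was 0.67 ± 0.45 (adjusted p = 0.206). The low value of 1.55 FPKM in Carma3xpA/+ d0 replicate 1 enters the spread shared by all groups, and with that library out of the fit the WT step passed the test (adjusted p = 0.0106), as did the WT difference of d10 against d0, 0.67 (adjusted p = 0.188 with the library, 0.00917 without).

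The ratio of Cdh1 to Cdh2 narrowed between d3 and d6 and did not reverse. The gene level of Cdh1 was above that of Cdh2 in all 24 libraries. The FPKM ratio ranged from 5.43 to 37.4 at d0, 8.58 to 14.6 at d3, 2.29 to 2.56 at d6 and 2.09 to 4.16 at d10 in Carma3xpA/+. It ranged from 7.31 to 11.9 at d0, 5.86 to 11.97 at d3, 2.19 to 3.34 at d6 and 3.79 to 4.06 at d10 in WT. The value of 37.4 belonged to Carma3xpA/+ d0 replicate 1. The gene value of Cdh2 was 0.600 to 0.604 of the value of its 1 listed transcript, and that of Cdh1 was 0.965 to 0.978 of the sum of its listed transcripts. Taken from transcripts, the ratio at d6 was 1.43 to 1.58 in Carma3xpA/+ and 1.36 to 2.07 in WT, and its lowest value in any library was 1.30, in Carma3xpA/+ at d10.

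**Figure D1:**
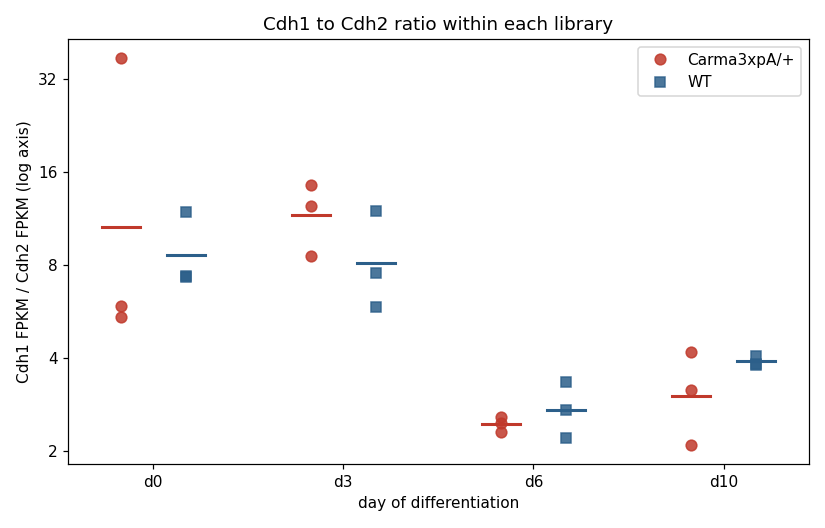
Ratio of Cdh1 to Cdh2 gene FPKM (log axis) in each of the 24 libraries by day of differentiation, Carma3xpA/+ as circles left of WT as squares, with the geometric mean of 3 libraries as a bar. All points lie above 2, and the d6 points (2.19 to 3.34) lie below all d0 and d3 points.

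Cdh11 (ENSMUSG00000031673.6, chr8:102632095-102785642, minus strand), a cadherin of mesenchymal cells, came up earlier than Cdh2. In Carma3xpA/+ libraries Cdh11 had 0.083, 2.57 and 2.63 FPKM at d0, 3.54, 6.83 and 5.12 FPKM at d3, 10.8, 11.3 and 11.6 FPKM at d6, and 24.7, 8.84 and 14.1 FPKM at d10. In WT libraries Cdh11 had 0.95, 0.81 and 0.47 FPKM at d0, 7.16, 9.34 and 11.5 FPKM at d3, 13.9, 10.9 and 13.4 FPKM at d6, and 14.5, 15.2 and 16.4 FPKM at d10. The d0 and d3 libraries did not overlap in either genotype. Cdh11 rose from d0 to d3 by 1.32 ± 0.35 on the log2 scale in Carma3xpA/+ (adjusted p = 0.00385) and by 2.56 ± 0.35 in WT (adjusted p = 4.34e-06). Without d0 replicate 1 the change in Carma3xpA/+ was 0.74 (adjusted p = 0.0284), and in a fit of the groups compared alone it was not called (adjusted p = 0.0916). The step from d3 to d6 passed in Carma3xpA/+, at 1.03 ± 0.35 (adjusted p = 0.0161, and 0.0804 without d3 replicate 1, 0.127 at a pseudocount of 0.1), and did not in WT (adjusted p = 0.315).

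Epcam (ENSMUSG00000045394.8, chr17:87635979-87651106, plus strand) encodes an adhesion molecule of epithelia and of pluripotent cells. In Carma3xpA/+ libraries Epcam had 98.2, 116.2 and 110.4 FPKM at d0, 131.5, 139.5 and 140.3 FPKM at d3, 73.3, 60.9 and 74.7 FPKM at d6, and 67.6, 115.05 and 97.8 FPKM at d10. In WT libraries Epcam had 117.6, 110.4 and 122.8 FPKM at d0, 131.1, 123.1 and 110.1 FPKM at d3, 74.8, 57.4 and 58.3 FPKM at d6, and 118.8, 128.7 and 141.5 FPKM at d10. It thus dipped at d6 in both genotypes, and at d10 the WT libraries were back in the range of d3 or above while those of Carma3xpA/+ were spread from 67.6 to 115.05 FPKM. Between d3 and d6 it fell by 0.97 ± 0.14 on the log2 scale in Carma3xpA/+ (adjusted p = 6.98e-06) and by 0.93 ± 0.14 in WT (adjusted p = 1.32e-05). From d6 to d10 it rose by 0.39 ± 0.14 in Carma3xpA/+ (adjusted p = 0.0273) and by 1.03 ± 0.14 in WT (adjusted p = 8.00e-06). The Carma3xpA/+ call was lost after quantile normalization (0.08, adjusted p = 0.627), without d6 replicate 2 (adjusted p = 0.127), and without d10 replicate 2 (0.203) or 3 (0.0931).

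Vim (ENSMUSG00000026728.9, chr2:13573927-13582826, plus strand) encodes the intermediate filament of mesenchymal cells. In Carma3xpA/+ libraries Vim had 47.1, 73.7 and 79.0 FPKM at d0, 11.03, 14.6 and 13.2 FPKM at d3, 105.003, 107.6 and 105.9 FPKM at d6, and 159.0, 175.2 and 175.1 FPKM at d10. In WT libraries Vim had 61.5, 60.6 and 62.05 FPKM at d0, 10.9, 14.9 and 13.8 FPKM at d3, 111.4, 117.4 and 106.3 FPKM at d6, and 156.7, 164.4 and 146.8 FPKM at d10. Vim was thus lowest at d3 and no day overlapped with another in either genotype. At d3 it was 5.14-fold lower than at d0 in Carma3xpA/+ and 4.64-fold lower in WT, and at d6 it was 8.20-fold higher than at d3 in Carma3xpA/+ and 8.44-fold higher in WT. Both steps passed in both genotypes (limma adjusted p between 4.36e-13 and 2.05e-10). The further step to d10 was 0.67 ± 0.14 in Carma3xpA/+ (adjusted p = 0.000504) and 0.48 ± 0.14 in WT (adjusted p = 0.00855), and neither call held after quantile normalization (0.33 and 0.27, adjusted p = 0.0593 and 0.126).

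**Figure D2:**
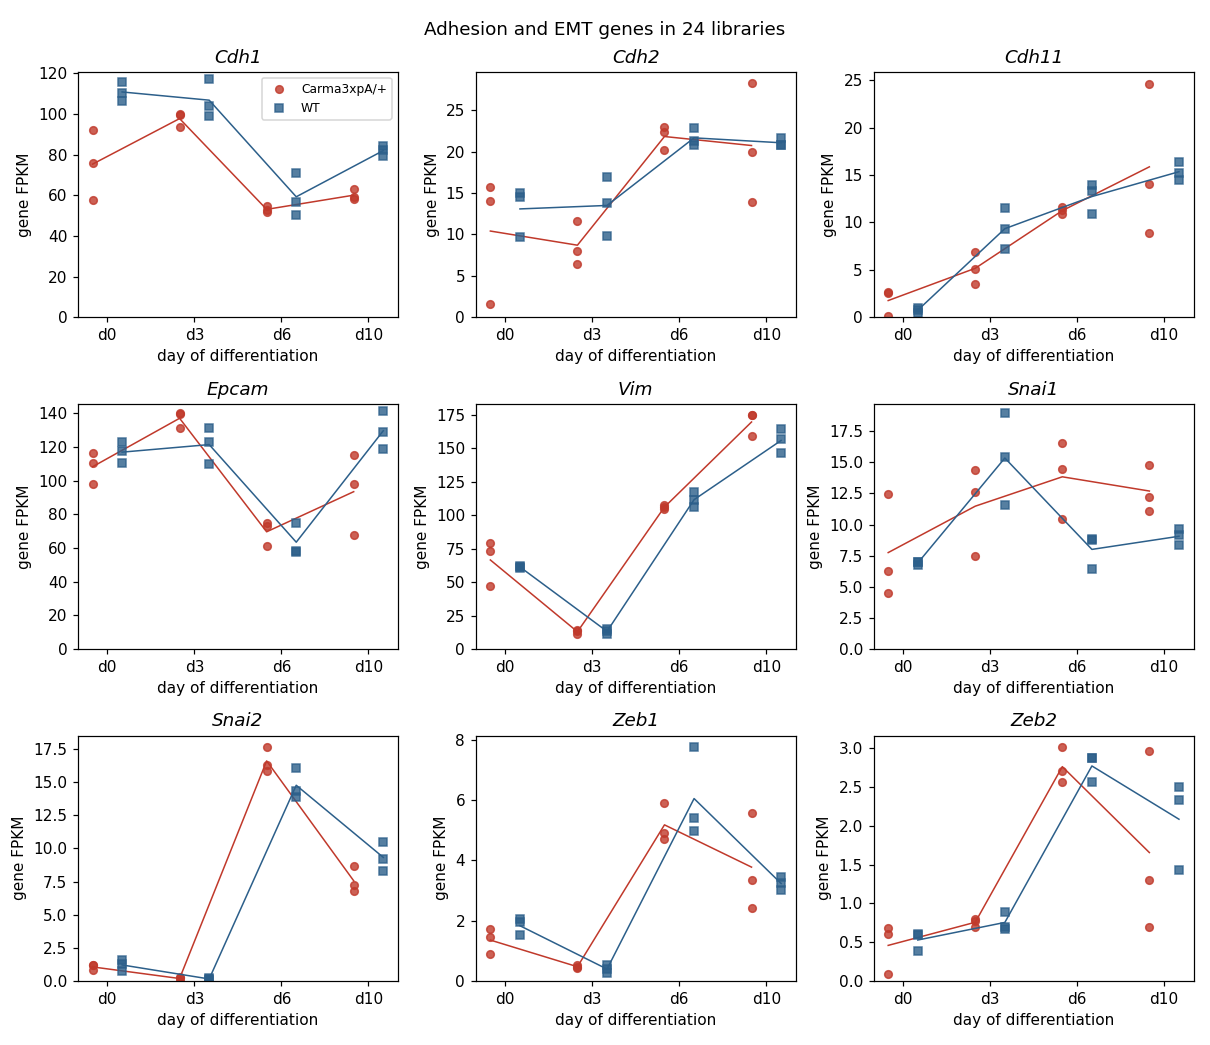
Gene FPKM (y axis, from 0) of the 9 genes by day of differentiation in 24 libraries, Carma3xpA/+ as circles left of WT as squares, with lines through the means of 3 libraries. Cdh1 and Epcam dip at d6, where Snai2 (13.9 to 17.6 FPKM), Zeb1 (4.72 to 7.77 FPKM) and Zeb2 (2.56 to 3.02 FPKM) are at their highest mean levels, and Vim is lowest at d3.

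Among the repressors, Snai1 had another time course than the rest. Snai1 (ENSMUSG00000042821.7, chr2:167538195-167542814, plus strand) is the Snail family member required at gastrulation. In Carma3xpA/+ libraries Snai1 had 4.53, 12.4 and 6.27 FPKM at d0, 7.44, 14.4 and 12.6 FPKM at d3, 14.5, 16.6 and 10.5 FPKM at d6, and 14.8, 11.1 and 12.2 FPKM at d10. In WT libraries Snai1 had 6.77, 6.96 and 7.02 FPKM at d0, 11.6, 15.5 and 19.0 FPKM at d3, 8.78, 8.84 and 6.40 FPKM at d6, and 9.19, 9.66 and 8.32 FPKM at d10. In WT it peaked at d3, and the d3 libraries lay above all other WT libraries. There it rose by 1.02 ± 0.26 on the log2 scale from d0 to d3 (adjusted p = 0.00228) and then fell by 0.85 ± 0.26 to d6 (adjusted p = 0.00804). In Carma3xpA/+ the libraries of neighbouring days overlapped, and no step between neighbouring days passed the test (adjusted p = 0.0721, 0.374 and 0.762 in the order of the days). The change from d0 to d3 there depended on single libraries: it was 0.57 ± 0.26 with all, 0.29 without d0 replicate 1 (adjusted p = 0.366), 0.93 without d0 replicate 2 (0.00231) and 0.83 without d3 replicate 1 (0.0155), and it was called with sample quality weights (0.00540).

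Snai2 (ENSMUSG00000022676.6, chr16:14705852-14709395, plus strand) had its highest levels at d6. In Carma3xpA/+ libraries Snai2 had 1.19, 1.18 and 0.80 FPKM at d0, 17.6, 16.3 and 15.9 FPKM at d6, and 8.65, 6.77 and 7.25 FPKM at d10, and at d3 it had 0.24 and 0.29 FPKM and was listed at 0 in replicate 3. In WT libraries Snai2 had 1.31, 0.71 and 1.59 FPKM at d0, 0.13, 0.10 and 0.20 FPKM at d3, 13.9, 14.4 and 16.1 FPKM at d6, and 8.27, 9.23 and 10.5 FPKM at d10. It was lowest at d3, at the peak of Snai1 in WT. The change from d3 to d6 was 3.91 ± 0.14 in Carma3xpA/+ (adjusted p = 1.38e-14) and 3.78 ± 0.14 in WT (adjusted p = 1.38e-14), the largest of the 9 genes in any step. The log2(FPKM + 1) scale understates the changes of genes this low. From d6 to d10 it fell by 1.05 ± 0.14 in Carma3xpA/+ (adjusted p = 4.06e-06) and by 0.61 ± 0.14 in WT (adjusted p = 0.00118), and the WT call was lost at a pseudocount of 0.1 (adjusted p = 0.133).

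Zeb1 (ENSMUSG00000024238.14, chr18:5591860-5775467, plus strand) encodes a repressor with zinc finger clusters at both ends and a homeodomain between them, as does Zeb2. In Carma3xpA/+ libraries Zeb1 had 0.88, 1.47 and 1.72 FPKM at d0, 0.53, 0.42 and 0.46 FPKM at d3, 4.72, 5.91 and 4.92 FPKM at d6, and 5.56, 2.43 and 3.35 FPKM at d10. In WT libraries Zeb1 had 1.51, 1.94 and 2.04 FPKM at d0, 0.27, 0.39 and 0.51 FPKM at d3, 7.77, 4.98 and 5.41 FPKM at d6, and 3.44, 3.25 and 3.01 FPKM at d10. It shared with Vim and Snai2 the low point at d3. The rise to d6 was 2.07 ± 0.18 in Carma3xpA/+ (adjusted p = 6.63e-09) and 2.32 ± 0.18 in WT (adjusted p = 1.27e-09). By d10 it had fallen in WT by 0.72 ± 0.18 (adjusted p = 0.00334). The same step in Carma3xpA/+ was -0.42 ± 0.18 (adjusted p = 0.0603), and it passed without d10 replicate 1 (-0.67, adjusted p = 0.00182) and with d0 replicate 1 out of the fit (adjusted p = 0.0417).

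Zeb2 (ENSMUSG00000026872.17, chr2:44983632-45117395, minus strand) had gene values that were a median 0.256 of the sum of its listed transcripts, so its level is not set beside those of the other repressors. In Carma3xpA/+ libraries Zeb2 had 0.089, 0.60 and 0.68 FPKM at d0, 0.70, 0.80 and 0.77 FPKM at d3, 2.71, 3.02 and 2.57 FPKM at d6, and 2.97, 0.69 and 1.30 FPKM at d10. In WT libraries Zeb2 had 0.61, 0.59 and 0.39 FPKM at d0, 0.70, 0.67 and 0.89 FPKM at d3, 2.88, 2.88 and 2.56 FPKM at d6, and 1.43, 2.33 and 2.50 FPKM at d10. It had no low point at d3. The rise from d3 to d6 was 1.10 ± 0.21 in Carma3xpA/+ (adjusted p = 0.000144) and 1.11 ± 0.21 in WT (adjusted p = 0.000146). In Carma3xpA/+ it fell by 0.59 ± 0.21 to d10 (adjusted p = 0.0232), a call that was lost without d10 replicate 2 (-0.31, adjusted p = 0.201) or 3 (adjusted p = 0.0744), without d6 replicate 2 (adjusted p = 0.0695) and at a pseudocount of 0.1 (adjusted p = 0.0774). Without d10 replicate 1 the fall was larger (-0.93, adjusted p = 0.000139). In WT that step did not pass (adjusted p = 0.244).

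Counted over the 9 genes and set beside all 13373 genes tested, the steps between days read as follows. From d0 to d3, 5 members passed in Carma3xpA/+ (Cdh1 and Cdh11 higher, and Vim, Snai2 and Zeb1 lower), where 52.4% of all genes did, and 5 in WT (Cdh11 and Snai1 higher, and Vim, Snai2 and Zeb1 lower), where 55.5% did. The Cdh1 call in Carma3xpA/+ (0.40 ± 0.13, adjusted p = 0.0126) was lost without d0 replicate 1 (0.22, adjusted p = 0.0953). From d3 to d6, 8 members passed in Carma3xpA/+, all but Snai1, against 63.3% of all genes. In WT 7 passed, all but Cdh2 and Cdh11, against 60.1%. From d6 to d10, 4 passed in Carma3xpA/+ (Vim and Epcam higher, and Snai2 and Zeb2 lower), against 55.3% of all genes, and 5 in WT (Cdh1, Epcam and Vim higher, and Snai2 and Zeb1 lower), against 48.5%. Over the whole course, d10 against d0, 8 passed in Carma3xpA/+, with Cdh1 lower, the others higher and Epcam not called, against 68.2% of all genes (40.9% higher and 27.3% lower). In WT 6 passed, with Cdh1 lower and Cdh11, Vim, Snai2, Zeb1 and Zeb2 higher, against 70.8% (42.2% higher and 28.6% lower). The Zeb1 call was lost after quantile normalization (0.37, adjusted p = 0.0561). The shares of members are near those of all genes at most steps, so the counts do not set the 9 genes apart from the table. In Carma3xpA/+ the calls of Cdh2 and Snai1 over the whole course were lost without d0 replicate 1 (0.40 and 0.46, adjusted p = 0.145 and 0.117), and without d10 replicate 1 (adjusted p = 0.0747 and 0.0639). That of Cdh1 (-0.30 ± 0.13, adjusted p = 0.0432) was lost without d0 replicate 2 (-0.14, adjusted p = 0.305) or 3 (0.0973) and without d10 replicate 1, 2 or 3 (0.0859, 0.104 and 0.0522), and without d0 replicate 1 it was -0.47 (0.000751). The change of Zeb2, 0.80 ± 0.21 (adjusted p = 0.00242), was 0.46 without d10 replicate 1 (0.0222).

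Over the 8 group means, the levels of Snai2 and Zeb1 correlated at 0.974 and those of Snai2 and Zeb2 at 0.925. Cdh1 correlated with Epcam at 0.845 and with Snai2 at -0.843, and Snai1 correlated with Snai2 at 0.008. These values describe 8 points that share their days of sampling. The genes with the most similar pattern over the 8 group means, among about 9071 genes that reached 5 FPKM in a group, were Cdc42ep1 (r = 0.998), Ppp1r3c and Tspan2 for Snai2, S1pr1 (r = 0.998), Pygl and Tgfb2 for Zeb1, and B3glct (r = 0.994), Galnt10 and Pxdn for Zeb2. For Vim they were Saraf (r = 0.997), Krt19 and Anxa2, of which Krt19 is a keratin of simple epithelia. For Cdh1 they were Gnpda1 (r = 0.961), Ctps and Ltv1, for Epcam Def8 (r = 0.948), Tpst1 and Iqgap1, for Cdh2 H2afy2 (r = 0.980), Rhoq and Pskh1, for Cdh11 Srek1ip1 (r = 0.990), Babam1 and Ube2e3, and for Snai1 Pcca (r = 0.931), Lgalsl and Armcx1.

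The other genes of the programme were counted from lists of EMT transcription factors, epithelial transcription and splicing factors, epithelial junction genes and mesenchymal genes. From d3 to d6 most of the 15 other EMT factors rose in both genotypes. In Carma3xpA/+ 10 were higher and 2 lower (median 0.87 against 0.11 over all genes), and in WT 11 were higher and 2 lower (median 1.42 against 0.10). Over all genes in that step, 37.8% were higher and 25.5% lower in Carma3xpA/+, and 35.4% were higher and 24.7% lower in WT. In WT the forkhead factor Foxc2 rose by 3.02 and Sox9 by 2.92 on the log2 scale, while Gsc, a homeobox gene of the primitive streak, fell by 3.04. Of 24 mesenchymal genes, 19 were higher and 1 lower in Carma3xpA/+ (median 1.99), and 22 were higher and 1 lower in WT (median 1.74). Smooth muscle actin Acta2 had 216.9, 263.3 and 246.3 FPKM at d6 in WT and 2.16, 2.26 and 3.10 FPKM at d3. Of 11 epithelial factors, 2 were higher and 6 lower in Carma3xpA/+, and 1 was higher and 6 lower in WT, among them Grhl2, which fell by 0.83 in WT.

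Among the epithelial junction genes more rose than fell in the step in which Cdh1 and Epcam fell. Of 28, 18 were higher and 3 lower at d6 than at d3 in Carma3xpA/+ (median 0.70), and 15 were higher and 6 lower in WT (median 0.47). The simple epithelial keratins led them, Krt19 with a log2 change of 3.53, Krt18 with 2.41 and Krt8 with 2.16 in WT. Krt8 had 285.4, 266.1 and 240.0 FPKM at d6 in WT and 41.0, 61.7 and 77.5 FPKM at d3. The 10 visceral endoderm markers, an epithelium that expresses such keratins, summed to 663 to 861 FPKM at d6 and 17.8 to 19.5 FPKM at d3 in Carma3xpA/+, and to 252 to 287 FPKM at d6 and 24.3 to 36.5 FPKM at d3 in WT. Their part in the junction genes was not tested.

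From d0 to d3 more members fell than rose in both the junction and the mesenchymal list. Of the junction genes, 6 were higher and 14 lower in Carma3xpA/+ and 5 were higher and 16 lower in WT. Of the mesenchymal genes, 2 were higher and 15 lower in Carma3xpA/+ and 2 were higher and 19 lower in WT. Over all genes 27.5% were higher and 24.9% lower in Carma3xpA/+, and in WT 27.7% were higher and 27.7% lower. Klf4, a pluripotency factor that is also epithelial, fell by 5.11 on the log2 scale in WT. Fibroblast and feeder markers summed to 7.74 to 9.71 FPKM at d3 and 20.5 to 38.5 FPKM at d0 in Carma3xpA/+, and to 5.41 to 6.57 FPKM at d3 and 23.4 to 27.5 FPKM at d0 in WT. Their part in the fall of Vim and the mesenchymal list was not tested.

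From d6 to d10 more of the other EMT factors fell than rose. Over all genes 26.2% were higher and 29.1% lower in Carma3xpA/+, and 24.6% were higher and 23.9% lower in WT. None was higher and 6 were lower in Carma3xpA/+ (among them Hmga2, Foxc2, Twist1, Tcf3 and Twist2), and in WT 1 was higher (Klf8) and 8 were lower. Mesenchymal genes went on rising, 14 higher and 1 lower in Carma3xpA/+ and 16 higher and none lower in WT, where Lox, which crosslinks collagen, rose by 4.53. Junction genes rose too. Of 28, 11 were higher and 2 lower in Carma3xpA/+, and 22 were higher and 1 lower in WT. Without Carma3xpA/+ d10 replicate 1, 17 of 28 were higher in Carma3xpA/+.

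**Figure D3:**
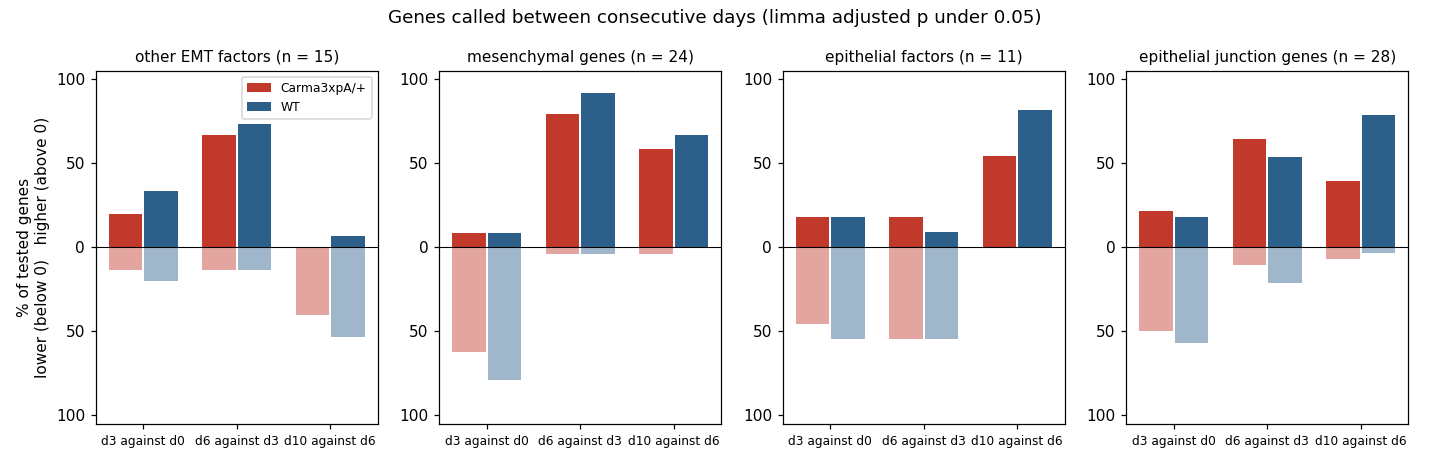
Share of the genes of 4 lists called higher (dark bars, above 0) or lower (pale bars, below 0) between consecutive days in Carma3xpA/+ (red, left) and WT (blue, right), limma adjusted p under 0.05. Most of the 24 mesenchymal genes are called lower at d3 and higher at d6 and d10, and of the 15 other EMT factors 10 in Carma3xpA/+ and 11 in WT were higher at d6 than at d3, and 6 in Carma3xpA/+ and 8 in WT were lower at d10 than at d6.

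Among 6 other cadherins tested, Cdh5 (VE-cadherin of endothelium), Cdh6, Cdh3 (P-cadherin) and Cdh13 were higher and Cdh9 lower at d6 than at d3, in both genotypes. Cdh5 had 75.3, 68.4 and 57.8 FPKM at d6 in WT, above all Cdh2 values, and 0.016, 0.073 and 0.22 FPKM at d3. It fell by 3.10 on the log2 scale to d10 in WT. Of 5 catenins, which tie cadherins to actin, Jup, Ctnna1 and Ctnnd1 were higher and Ctnnal1 lower at d6 than at d3 in both genotypes. Most genes were called in that step, 63.3% of all genes in Carma3xpA/+ (37.8% higher) and 60.1% in WT (35.4% higher).

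The comparison of the genotypes sets Carma3xpA/+ libraries beside WT libraries on each day. Since the labels name no clones, the allele cannot be told apart from other differences between the cells. At d0, 1 of the 9 genes passed, against 18.8% of all genes (9.53% higher and 9.29% lower): Cdh1 averaged 75.3 ± 17.1 FPKM in Carma3xpA/+ and 110.9 ± 4.53 FPKM in WT (SD, n = 3 each), a log2 difference of -0.58 ± 0.13 (limma adjusted p = 0.00404). Every Carma3xpA/+ library lay below every WT library. The difference held without Carma3xpA/+ d0 replicate 1 (-0.40, adjusted p = 0.0147) and was not called in a fit of the d0 libraries alone (adjusted p = 0.192). Cdh2 differed by -0.69 ± 0.45 (adjusted p = 0.298), and without replicate 1 its sign turned to 0.19 (adjusted p = 0.668). Cdh11 differed by 0.48 ± 0.35 (adjusted p = 0.367), and without replicate 1 it was higher in Carma3xpA/+ by 1.05 (adjusted p = 0.0111). The other 6 members had adjusted p between 0.308 and 0.943. Among epithelial factors, Esrp1, Grhl3 and Grhl1 were lower in Carma3xpA/+ at d0. Without replicate 1, Grhl1 and Ovol1 were lower and Grhl2 was higher. With all libraries, the mesenchymal genes called with the largest differences at d0 were lower in Carma3xpA/+ too. They were Fn1 (-1.02, limma adjusted p = 0.0335), Acta2 (-0.99, 0.00225) and Lox (-0.68, 0.0176). The 24 mesenchymal genes summed to 229, 480 and 423 FPKM in replicates 1, 2 and 3 of Carma3xpA/+ at d0. In WT at d0 they summed to 452 to 459 FPKM, so the low sum was that of replicate 1. Values of Fn1, Acta2 and Lox without that replicate are not given here. The epithelial junction gene Rab25 was higher (0.68, adjusted p = 0.0412).

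At d3 none of the 9 genes passed limma's test, against 6.47% of all genes (4.54% higher and 1.93% lower), and 1, Cdh11, had an unadjusted p under 0.05. How many of all genes reached that unadjusted level was not counted. Cdh11 had 3.54, 6.83 and 5.12 FPKM in Carma3xpA/+ and 7.16, 9.34 and 11.5 FPKM in WT. The libraries did not overlap, and the log2 difference was -0.76 ± 0.35 (adjusted p = 0.256), which became 0.0495 with Carma3xpA/+ d0 replicate 1 out of the fit. Epcam did not overlap either, at 131.5 to 140.3 FPKM in Carma3xpA/+ and 110.1 to 131.1 FPKM in WT (adjusted p = 0.614). The share of all genes without overlap between genotypes was not counted for this or any other day.

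At d6 none of the 9 passed limma's test, against 7.78% of all genes, and 1, Snai1, had an unadjusted p under 0.05. How many of all genes reached that unadjusted level was not counted. Snai1 had 14.5, 16.6 and 10.5 FPKM in Carma3xpA/+ and 8.78, 8.84 and 6.40 FPKM in WT, with no overlap. The log2 difference was 0.71 ± 0.26 (adjusted p = 0.112), and it passed with Carma3xpA/+ d0 replicate 1 out of the fit (adjusted p = 0.0483). Snai2, Zeb1, Zeb2, Vim and both cadherins of the switch overlapped between genotypes at d6, with adjusted p between 0.601 and 0.998. Other EMT factors did differ. Twist2 had 8.54, 11.7 and 8.63 FPKM in Carma3xpA/+ and 3.84, 4.34 and 4.72 FPKM in WT (1.00 ± 0.15, adjusted p = 0.000327). Twist1, a basic helix-loop-helix factor of mesoderm, had 32.9, 35.2 and 28.4 FPKM in Carma3xpA/+ and 21.2, 19.8 and 18.3 FPKM in WT (0.67 ± 0.20, adjusted p = 0.0440). Of the 15 factors 3 were higher and 1 lower, against 4.3% and 3.48% of all genes, and their median was -0.13 against 0.00395. Of 24 mesenchymal genes none was higher and 4 were lower, Postn, Col3a1, Col1a2 and Tagln. Fibroblast markers, a list that shares Postn, Col3a1 and Col1a2, summed to 87.8 to 113.6 FPKM in Carma3xpA/+ and 94.3 to 245.0 FPKM in WT.

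At d10, 2 of the 9 passed, against 10.9% of all genes, and both were epithelial genes lower in Carma3xpA/+. Cdh1 averaged 60.1 ± 2.57 FPKM in Carma3xpA/+ and 82.0 ± 2.47 FPKM in WT (SD, n = 3 each), a log2 difference of -0.44 ± 0.13 (adjusted p = 0.0274). Epcam averaged 93.5 ± 24.03 FPKM in Carma3xpA/+ and 129.7 ± 11.4 FPKM in WT, a difference of -0.50 ± 0.14 (adjusted p = 0.0308). Neither gene overlapped between genotypes. Snai1 did not overlap at d10 either, at 11.1 to 14.8 FPKM in Carma3xpA/+ and 8.32 to 9.66 FPKM in WT. It was higher in Carma3xpA/+ by 0.44 ± 0.26 and was not called (limma adjusted p = 0.319). The calls of Cdh1 and Epcam both lie near the threshold. Cdh1 was not called without Carma3xpA/+ replicate 2 or 3 (adjusted p = 0.0790 and 0.0538) or WT replicate 1, 2 or 3 (0.0853, 0.0721 and 0.0641), with differences between -0.48 and -0.42. Epcam was not called without Carma3xpA/+ replicate 1 (-0.28, adjusted p = 0.120) or 3 (0.0521) or WT replicate 2 or 3 (0.0751 and 0.136), in a fit of the d10 libraries alone (0.196) or after median-of-ratios scaling (0.0503).

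The Carma3xpA/+ d10 libraries also differed among themselves. Replicate 1 had the lowest Epcam (67.6 FPKM) and the highest Cdh2 (28.3 FPKM), Cdh11 (24.7 FPKM), Zeb1 (5.56 FPKM) and Zeb2 (2.97 FPKM). Replicate 2 had the highest Epcam (115.05 FPKM) and the lowest Cdh2 (13.9 FPKM), Cdh11 (8.84 FPKM), Zeb1 (2.43 FPKM) and Zeb2 (0.69 FPKM). Summed visceral endoderm markers were 344, 1487 and 903 FPKM in replicates 1, 2 and 3 of Carma3xpA/+ and 606 to 1096 FPKM in WT, with 9 and 10 of the 10 markers at 1 FPKM or more in all 3 libraries. Fibroblast markers summed to 302 to 415 FPKM in Carma3xpA/+ and 654 to 826 FPKM in WT, and cardiac markers to 1123 to 1679 FPKM in Carma3xpA/+ and 449 to 643 FPKM in WT. Surface epithelium markers summed to 105.2 to 118.9 FPKM in Carma3xpA/+, with 6 of 8 at 1 FPKM or more in all 3 libraries, and to 104.8 to 152.3 FPKM in WT, with 7 of 8. Pluripotency markers summed to 195 to 287 FPKM in Carma3xpA/+ and 133 to 209 FPKM in WT, with 5 of 10 called higher and none lower in Carma3xpA/+. Of 8 endothelial markers 5 were higher in Carma3xpA/+, with sums of 33.0 to 53.8 FPKM in Carma3xpA/+ and 25.7 to 31.3 FPKM in WT, and of 6 neural markers tested 3 were lower, with sums of 34.1 to 78.3 FPKM in Carma3xpA/+ and 72.4 to 100.4 FPKM in WT. None of these markers was listed at 0 in all 3 libraries of a d10 group. Over all genes, 4.95% were higher and 5.91% lower in Carma3xpA/+ at d10. The part of these cell types in the differences of Cdh1 and Epcam was not tested.

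**Figure D4:**
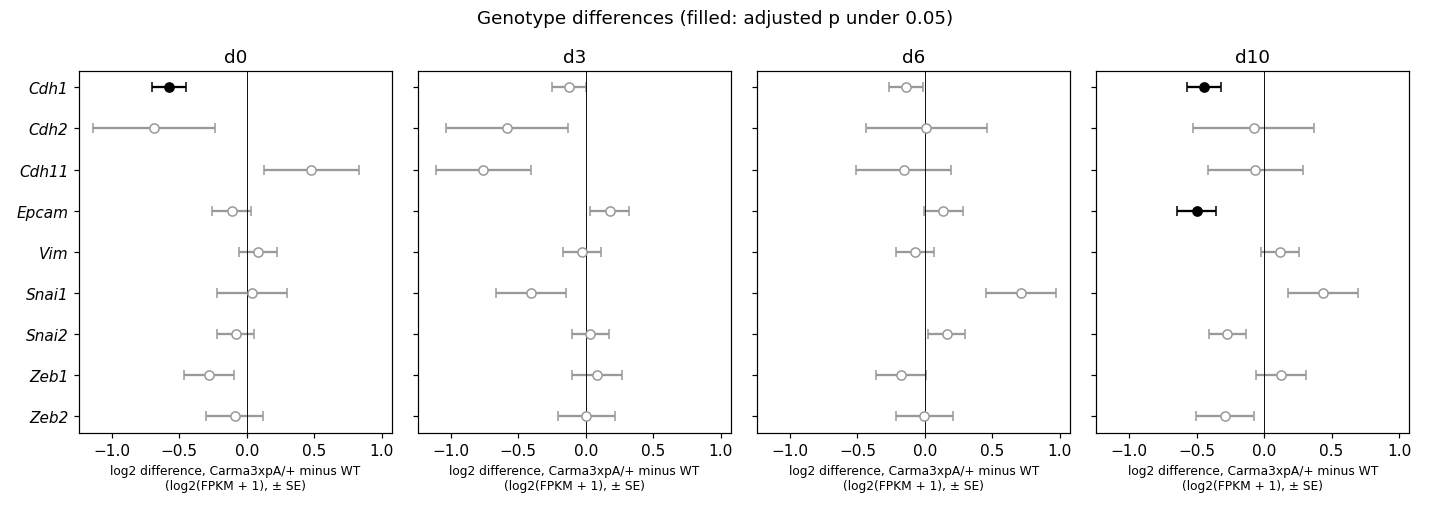
Difference between genotypes, Carma3xpA/+ minus WT, on the log2(FPKM + 1) scale with SE for the 9 genes at each day. Filled points passed limma's adjusted p of 0.05, which were Cdh1 at d0 (-0.58) and d10 (-0.44) and Epcam at d10 (-0.50).

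The lists at d10 held members of both kinds. Of 11 epithelial factors 3 were lower in Carma3xpA/+ and none higher, against 5.91% and 4.95% of all genes. These were the splicing factors Esrp1 and Esrp2 and the zinc finger factor Ovol2. Esrp2 had 2.34, 4.69 and 4.07 FPKM in Carma3xpA/+ and 6.20, 6.71 and 6.45 FPKM in WT (-0.70 ± 0.16, adjusted p = 0.00512). Of 28 junction genes 4 were lower, among them Marveld2, Cgn and St14 (list median -0.32 against -0.03 over all genes). Of 15 other EMT factors 4 were higher, among them Twist1, Prrx1 and Twist2 (list median 0.21). Twist1 had 20.1, 14.2 and 15.7 FPKM in Carma3xpA/+ and 10.7, 9.38 and 5.89 FPKM in WT (0.89 ± 0.20, adjusted p = 0.00547). Of 24 mesenchymal genes 5 were lower and none higher, Lox, Col1a2, S100a4, Ncam1 and Fbn1 (list median -0.39). Lox had 14.5, 11.2 and 11.7 FPKM in Carma3xpA/+ and 34.0, 35.0 and 49.9 FPKM in WT (-1.58 ± 0.19, adjusted p = 8.18e-06). Without Carma3xpA/+ d10 replicate 1, 3 EMT factors were higher and 1 was lower, 2 epithelial factors, 3 junction genes and 7 mesenchymal genes were lower.

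Cdh3 was the other cadherin that differed on several days. It had 6.55, 12.6 and 7.80 FPKM in Carma3xpA/+ and 13.6, 13.4 and 14.1 FPKM in WT at d0 (-0.61 ± 0.16, adjusted p = 0.0138), a call that was lost without Carma3xpA/+ d0 replicate 1. It had 8.19, 6.47 and 8.71 FPKM in Carma3xpA/+ and 10.002, 14.1 and 13.3 FPKM in WT at d6 (-0.61 ± 0.16, adjusted p = 0.0228). At d10 it had 11.3, 11.02 and 9.47 FPKM in Carma3xpA/+ and 22.1, 22.8 and 22.8 FPKM in WT (-1.03 ± 0.16, adjusted p = 0.000198).

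Whether the genotype difference changed between neighbouring days was tested as an interaction. None of the 9 genes passed at d3 against d0, d6 against d3 or d10 against d6, where 3.63% (2.07% upward and 1.56% downward), 2.66% (0.785% and 1.88%) and 4.22% (1.51% and 2.71%) of all genes did. At an unadjusted p under 0.05 there were 2 (Cdh1 and Cdh11), 1 (Snai1) and 2 (Epcam and Snai2). The share of all genes at that unadjusted level was not counted, so these counts cannot be set beside the shares above. For Snai1 the difference grew by 1.12 ± 0.37 from d3 to d6 (adjusted p = 0.126). For Cdh11 it changed by -1.24 ± 0.50 from d0 to d3 (adjusted p = 0.171), which passed without Carma3xpA/+ d0 replicate 1 (-1.81, adjusted p = 0.00412). For Epcam it changed by -0.63 ± 0.20 from d6 to d10 (adjusted p = 0.0930). That change passed without Carma3xpA/+ d10 replicate 2 (-0.80, adjusted p = 0.0138), without WT d6 replicate 1 (-0.76, 0.0466), after quantile normalization (-0.71, 0.0387) and with sample quality weights (-0.55, 0.00151), and leaving out 1 library at a time gave -0.80 to -0.42. For Cdh1 the change from d0 to d3, 0.45 ± 0.18 (adjusted p = 0.162), passed without Carma3xpA/+ d0 replicate 2 (0.61, adjusted p = 0.0251).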

How the data were processed

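Per the labels' protocols, poly(A) RNA was made into stranded (dUTP) libraries. The authors deposited FPKM values for genes and transcripts, per the file headers, of protein coding genes. The build was mm10, and the tools named in the submitters' processing notes are StringTie, HISAT2, cutadapt and FastQC, whose versions and settings are not stated there. Sequencing depth is unknown, so no interval for counting error can be given, and FPKM depends on the few genes that take a large share of a library.

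Groups came from the titles. Values were tested as log2(FPKM + 1) with limma 3.58.1 (R 4.3.3, trend), with 8 group means and 16 residual degrees of freedom, over 13373 genes, in 15 comparisons, each with Benjamini-Hochberg adjustment and a threshold of 0.05. Errors of log2 changes are SE. Tested on simulated data shaped like the genotype comparison at d3 (13373 genes), 41 of 67 genes changed by 0.5, 57 of 67 changed by 1, 66 of 66 changed by 2 and 14 of 13173 unchanged genes were called. Changes were placed only in genes with a mean log2(FPKM + 1) above 2, with normal noise of 1 spread per gene. No simulated library stood apart, so these rates do not cover lower genes such as Zeb1 and Zeb2, or such a library. The 9 genes and the lists were chosen with earlier results of these data known. Named list genes are up to 3 called genes of largest change per list and comparison, and all called genes where the count is small. Genes with a similar pattern are the 3 with the highest Pearson r over the group means. Members of a list named beside a larger count, and genes near Cdh1, were chosen after their values were seen. Alternatives were the pseudocount, filter, scaling, sample weights, a size rule, transcript sums, a fit of the groups compared, a replicate block and leaving out each library. Leaving Carma3xpA/+ d0 replicate 1 out of the shared spread, and list counts without doubted libraries, were chosen after seeing the data. Some list genes are counted but not reported here by name.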

Additional observations from a re-analysis of the deposited data

Results flagged for a closer look

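The genotype difference of Epcam was flagged because its sign differed between days with no overlap of libraries on either day. How many of all genes have such a pattern was not counted. At d3 all Carma3xpA/+ libraries (131.5 to 140.3 FPKM) lay above all WT libraries (110.1 to 131.1 FPKM), and at d10 all Carma3xpA/+ libraries (67.6 to 115.05 FPKM) lay below all WT libraries (118.8 to 141.5 FPKM). The libraries at d3 nearly touched, with 131.47 FPKM in the lowest of Carma3xpA/+ and 131.09 FPKM in the highest of WT. The d3 difference, 0.18 ± 0.14, did not pass limma's test (adjusted p = 0.614). The difference at d10 minus that at d3 was -0.67 on the log2(FPKM + 1) scale, and this difference between d3 and d10 was not tested.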

How the results depend on the processing

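Of 135 pairs of a member and a comparison, 51 were called. None of the 51 changed sign under any alternative run. Apart from the rule of an absolute log2 change of at least 1, 33 were called under every alternative that tested the gene. Zeb2 did not pass the filter at 5 FPKM, so its pairs among the 33 were not tested under that filter. Of the 84 pairs not called, 33 changed sign under at least 1 alternative. Of those named, Cdh2 at d0 between genotypes was -0.69, and ranged from -1.17 (without Carma3xpA/+ d0 replicate 2) to 0.19 (without replicate 1) when 1 library was left out. Scaling moved the median log2 change of all genes from 0.157 to 0.0552 (median-of-ratios) or -0.00407 (quantile) for d10 against d0 in WT, from 0.137 to 0.0212 or -0.00561 in Carma3xpA/+, and from 0.109 to 0.00596 or -0.054 for d6 against d3 in Carma3xpA/+.

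Counts of members called between genotypes moved as follows. At d10 (2 called) there was 1 after median-of-ratios scaling, 1 in a fit of the groups compared, 6 with sample quality weights and 0 under the size rule. At d0 (1 called) there were 0 in a fit of the groups compared, 3 with weights and 0 under the size rule. At d3 (0 called) there were 2 with weights, and at d3 and d6 (0 called) 1 each with Carma3xpA/+ d0 replicate 1 out of the shared spread. Changes of the genotype difference (0 called) had 4, 1 and 2 with weights in the order of the days, and 1 after quantile normalization for d10 against d6.

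Between days, quantile normalization left 3 of 5 for d10 against d6 in WT and 2 of 4 in Carma3xpA/+. A fit of the groups compared left 2 of 4 for d10 against d6 and 4 of 8 for d10 against d0 in Carma3xpA/+. Weights gave 8 for d3 against d0 (5 called) and 7 for d10 against d6 (4 called) in Carma3xpA/+. Under the size rule the counts were 4 for d6 against d3, 1 for d10 against d6 and 3 for d10 against d0 in WT, and 2 for d3 against d0, 1 for d10 against d6 and 4 for d10 against d0 in Carma3xpA/+. Leaving out 1 library at a time gave 1 to 2 at d0 and 0 to 2 at d10 between genotypes, 2 to 5 for d10 against d6 and 5 to 8 for d10 against d0 in Carma3xpA/+, and 0 to 1 for the change of the genotype difference at d3 against d0 and at d10 against d6. In a fit of the groups compared, the calls of Epcam and Zeb2 for d10 against d6 (adjusted p = 0.134 and 0.128) and of Cdh1 for d3 against d0 (0.119) in Carma3xpA/+ were lost. A pseudocount of 0.1 raised the changes of Snai2, Zeb1 and Zeb2, such as Snai2 for d6 against d3 to 6.13 in Carma3xpA/+ and 5.93 in WT. Transcript sums gave Zeb2 1.82 in Carma3xpA/+ and 1.67 in WT for that step. The cause of these changes was not tested.

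Replicate numbers did not pair the libraries: over 84 pairs of libraries with the same number in different groups, the correlation of deviations from the group means had a median of 0.0066 and exceeded 0.1 in 8. With the replicate block, the call of Cdh1 for d10 against d0 in Carma3xpA/+ was lost (-0.30, adjusted p = 0.0550), and no other call of a named member and no count by over 1.5 times changed.

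Limits. The files hold no counts, so the precision of low values such as Zeb2, or Snai2 at d3, cannot be stated. Gene and transcript values differ for Vim (ratio 0.416 to 0.477), Cdh2, Cdh11, Zeb1 and Zeb2, so levels of these genes beside others depend on which is used. A single library, Carma3xpA/+ d0 replicate 1, enters the spread of all comparisons.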

Other observations

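Cdh1, Cdh3 and Esrp2, which were lower in Carma3xpA/+ at d10, lie close together on chromosome 8, Esrp2 at chr8:106130319-106136974 and Cdh3 at chr8:106510891-106557297. Of 20 other tested genes within 500 kb of Cdh1, a window chosen after the values were seen, 3 were lower at d10 in Carma3xpA/+ (Chtf8, Cdh3 and Esrp2) and none was higher, with a median log2 difference of -0.044, where 5.91% of all genes tested were lower. At d0, 1 was lower (Cdh3) and 1 higher (Prmt7), where 9.29% of all genes were lower. At d3 limma called none, where 1.93% were lower, and at d6 2 were lower (Utp4 and Cdh3), where 3.48% were. At an unadjusted limma p under 0.05 there were 7 at d0, 6 at d3, 2 at d6 and 4 at d10. Those at d3 included Utp4, which was higher in Carma3xpA/+ (0.19). How many of all genes reached that unadjusted level was not counted. On chromosome 8, 11.7% of genes were lower in Carma3xpA/+ at d0, 5% at d3, 5.57% at d6 and 6.86% at d10. On all other chromosomes, 9.15%, 1.76%, 3.36% and 5.86% were lower on the same days. Over all 700 tested genes of chromosome 8 the median difference between genotypes was -0.0516 at d0, -0.11 at d3, -0.0557 at d6 and -0.0651 at d10, and over the genes of all other chromosomes -0.0267, -0.00419, 0.00827 and -0.0223 on the same days.

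The transcript table adds little for most members. Cdh2, Cdh11, Epcam, Snai1 and Snai2 had 1 listed transcript each. Zeb2 had 6, and their shares varied widely between libraries.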
